A study of Mus musculus with 4 samples.

Results

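The retinoic acid receptors, the retinoid X receptors and 1 retinoic acid degrading enzyme were followed in the long-term haematopoietic stem cells (HSCs) of the mouse, from which all blood lineages arise. The 7 genes, Rara, Rarb, Rarg, Rxra, Rxrb, Rxrg and Cyp26b1, are 7 of 23185 genes that carried a symbol on the array, and each had a single probe set. They were chosen by family, and the family was selected on the low log2 intensities of Rarb at 0.1 and 0.5 Gy in these same data, so those values are a description and carry no test. Lineage-negative marrow cells positive for c-Kit and Sca received 0, 0.02, 0.1 or 0.5 Gy of γ-irradiation and were then given to lethally irradiated recipients. The sort, 6 months after transplantation, took cells that were Lin-, ckit+ and Sca+ as well as negative for Flk2 and CD48 and positive for CD150, so the cells of the 0 Gy group had also passed through a transplantation and a lethally irradiated host. The strain, age and sex of the mice, a donor marker in the gate and any pooling of recipients were not stated. Each dose was measured on 1 array, and no spread between replicates can be given for any value.

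Retinoic acid is made from vitamin A by oxidation of retinol to retinal and of retinal to the acid. It binds the retinoic acid receptors, which pair with a retinoid X receptor on response elements made of repeated hexamers in DNA. Without ligand the pair holds corepressors, and with ligand it recruits coactivators. The enzymes of the CYP26 family hydroxylate the acid and so end the signal. In mouse HSCs, retinoic acid signalling is known for its links to self-renewal and dormancy. Rarb is a textbook target of its own ligand, through a response element in its promoter.

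That promoter is shown because the element is a textbook link between the receptors and the level of Rarb. RefSeq (GRCm38.p6) gives 1 window for Rarb, which runs from 250 bases before to 50 bases after the start, at chr14:16575427-16575726 on the minus strand. Capitals mark 17 bases from position -53 to position -37 relative to the start, the direct repeat with a spacer of 5 bases (DR5).
Rarb: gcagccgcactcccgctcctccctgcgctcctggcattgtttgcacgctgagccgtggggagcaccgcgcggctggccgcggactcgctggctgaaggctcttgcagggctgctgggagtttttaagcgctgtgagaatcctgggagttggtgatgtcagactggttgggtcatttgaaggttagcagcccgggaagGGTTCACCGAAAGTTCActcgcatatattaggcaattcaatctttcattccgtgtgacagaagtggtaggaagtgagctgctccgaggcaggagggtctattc

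The search took AGGTCA as the consensus hexamer, and allowed AGTTCA as a variant, then GGGTCA as another variant, and GGTTCA as the last, on both strands and repeated in the same direction with a spacer of 1, 2 or 5 bases (DR1, DR2 and DR5). A DR5 was found in 32 of 32851 promoter windows, which is 0.0974%, and a single hexamer, which every repeat also contains, in 43.7%. Windows were present for each of the 7 genes, and Rarb was the only one of them with a DR1, DR2 or DR5. No match says only that these letters are not in the window. Among 34 other retinoid pathway genes with a window, 1 had a DR1 (Bco1, which encodes a carotene-cleaving enzyme), 0 had a DR2 and 1 had a DR5. That DR5 belongs to Cyp26a1, another retinoic acid hydroxylase, and runs from position -32 to position -16 on the strand opposite to the gene. The 2 elements are set side by side with the hexamers in capitals.
Rarb: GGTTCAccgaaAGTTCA
Cyp26a1: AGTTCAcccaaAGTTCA

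Both elements end in the hexamer AGTTCA. The first hexamer reads GGTTCA for Rarb, while it is AGTTCA for Cyp26a1. The Rarb element lies at chr14:16575513-16575529 on the minus strand. The Cyp26a1 element lies at chr19:37697776-37697792 and is written as the minus strand reads.

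The deposited values are log2 intensities, and the differences below are differences between log2 values of 2 arrays for the same probe set. Levels of different genes were not set against each other. Genes whose mean log2 intensity over the arrays lay below 4.06, the median gene mean, were set aside as low, which left 11593 genes. Of the 7 genes 6 passed this filter, and Rxrg did not. A gene was counted as higher or lower at 1.5-fold or at 2-fold, and counts are set against the share of all kept genes past the same line in the same direction, given in percent.

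Rarb, which encodes retinoic acid receptor beta, had log2 intensities of 6.91 (0 Gy), 6.35 (0.02 Gy), 4.46 (0.1 Gy) and 4.31 (0.5 Gy). The arrays of 0 and 0.02 Gy were high, and those of 0.1 and 0.5 Gy were low and lay close above the filter level. The difference from 0 Gy came to -0.56 (0.02 Gy), -2.45 (0.1 Gy) and -2.60 (0.5 Gy), which is 1.47-fold, 5.46-fold and 6.07-fold lower. Of the 11593 kept genes, 45 were as low as Rarb or lower at 0.1 Gy, 56 at 0.5 Gy and 35 at both doses. At least 2-fold lower at both doses were 157 genes, or 1.35%. The family was chosen on Rarb at these doses, so the place of Rarb among the genes is a description. The arrays measured RNA of sorted cells in bulk, in which fewer cells with the transcript and less transcript per cell cannot be told apart.

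The step in Rarb lay between 0.02 and 0.1 Gy. It had a log2 intensity of 4.46 at 0.1 Gy against 6.35 at 0.02 Gy, a difference of -1.89. At 0.5 Gy the difference from 0.02 Gy was -2.04, and from 0.1 Gy it was -0.15. Of the 7 genes, 1 was at least 2-fold lower at 0.1 Gy than at 0.02 Gy, against 3.23% of kept genes, and 1 at 0.5 Gy than at 0.02 Gy, against 3.3%. In both cases this was Rarb. At 1.5-fold, 2 (Rarb and Cyp26b1) were lower at 0.1 Gy than at 0.02 Gy, against 8.15%, and 1 (Rarb) at 0.5 Gy than at 0.02 Gy, against 8.62%. In the upward direction 0 passed the 1.5-fold line, against 5.9% at 0.1 Gy and 5.92% at 0.5 Gy, and 0 the 2-fold line, against 1.52% and 1.57%. Between 0.5 and 0.1 Gy 0 passed any of the lines, against 6.51% lower and 5.91% higher at 1.5-fold and 1.93% lower and 1.58% higher at 2-fold. Rarb was also the only one of the 5 genes with 4 different values, among the 7, whose level was lower at each successive dose, an order that 341 of 6231 kept genes with 4 different values followed, or 5.47%.

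Rara, which encodes retinoic acid receptor alpha, had log2 intensities of 5.58 (0 Gy), 5.43 (0.02 Gy), 4.96 (0.1 Gy) and 4.98 (0.5 Gy). Its arrays of 0.1 and 0.5 Gy were again the lower pair, with a range over the 4 arrays of 0.63 against 2.60 for Rarb. The difference from 0 Gy came to -0.15 (0.02 Gy), -0.63 (0.1 Gy) and -0.60 (0.5 Gy), the last within 0.02 of the 1.5-fold line. It fell short of that line at 0.1 Gy under quantile normalization, with -0.57, and at 0.5 Gy under quantile normalization, with -0.50, and cyclic loess, also with -0.57.

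Rarg, which encodes retinoic acid receptor gamma, had log2 intensities of 4.40 (0 Gy), 5.26 (0.02 Gy), 5.0 (0.1 Gy) and 4.96 (0.5 Gy). The 3 irradiated arrays were all above the 0 Gy array, which was the opposite side from Rarb. The difference was 0.86 at 0.02 Gy, 0.60 at 0.1 Gy and 0.56 at 0.5 Gy, which is 1.82-fold, 1.52-fold and 1.47-fold higher. All 3 differences share the single 0 Gy array, where Rarg was close to the filter level. The receptor is known from knockout mice for a role in HSC maintenance.

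Cyp26b1, which encodes a retinoic acid hydroxylase, had log2 intensities of 5.45 (0 Gy), 5.37 (0.02 Gy), 4.59 (0.1 Gy) and 5.04 (0.5 Gy). The array of 0.1 Gy was the lowest, and that of 0.5 Gy lay between it and the arrays of 0 and 0.02 Gy. The difference from 0 Gy came to -0.07 (0.02 Gy), -0.86 (0.1 Gy) and -0.41 (0.5 Gy), and at 0.1 Gy Cyp26b1 was 1.82-fold lower. In Rarb the array of 0.5 Gy was the lowest instead.

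The retinoid X receptors, the shared partners of the family, were near level over the 4 arrays. Rxra had log2 intensities of 5.75 (0 Gy), 5.91 (0.02 Gy), 5.69 (0.1 Gy) and 5.76 (0.5 Gy), a range of 0.22. Rxrb had 5.87 (0 Gy), 5.82 (0.02 Gy), 5.87 (0.1 Gy) and 5.87 (0.5 Gy). The Rxrb values at 0.1, 0.5 and 0 Gy were identical in the deposited table to every digit, and 46.3% of kept genes had at least 1 such tie among the 4 arrays. Rxrg, below the filter level on every array, had 3.29 (0 Gy), 3.33 (0.02 Gy), 3.24 (0.1 Gy) and 3.33 (0.5 Gy). The differences of Rxra, Rxrb and Rxrg from 0 Gy lay between -0.06 and 0.16 at the 3 doses.

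**Figure D1:**
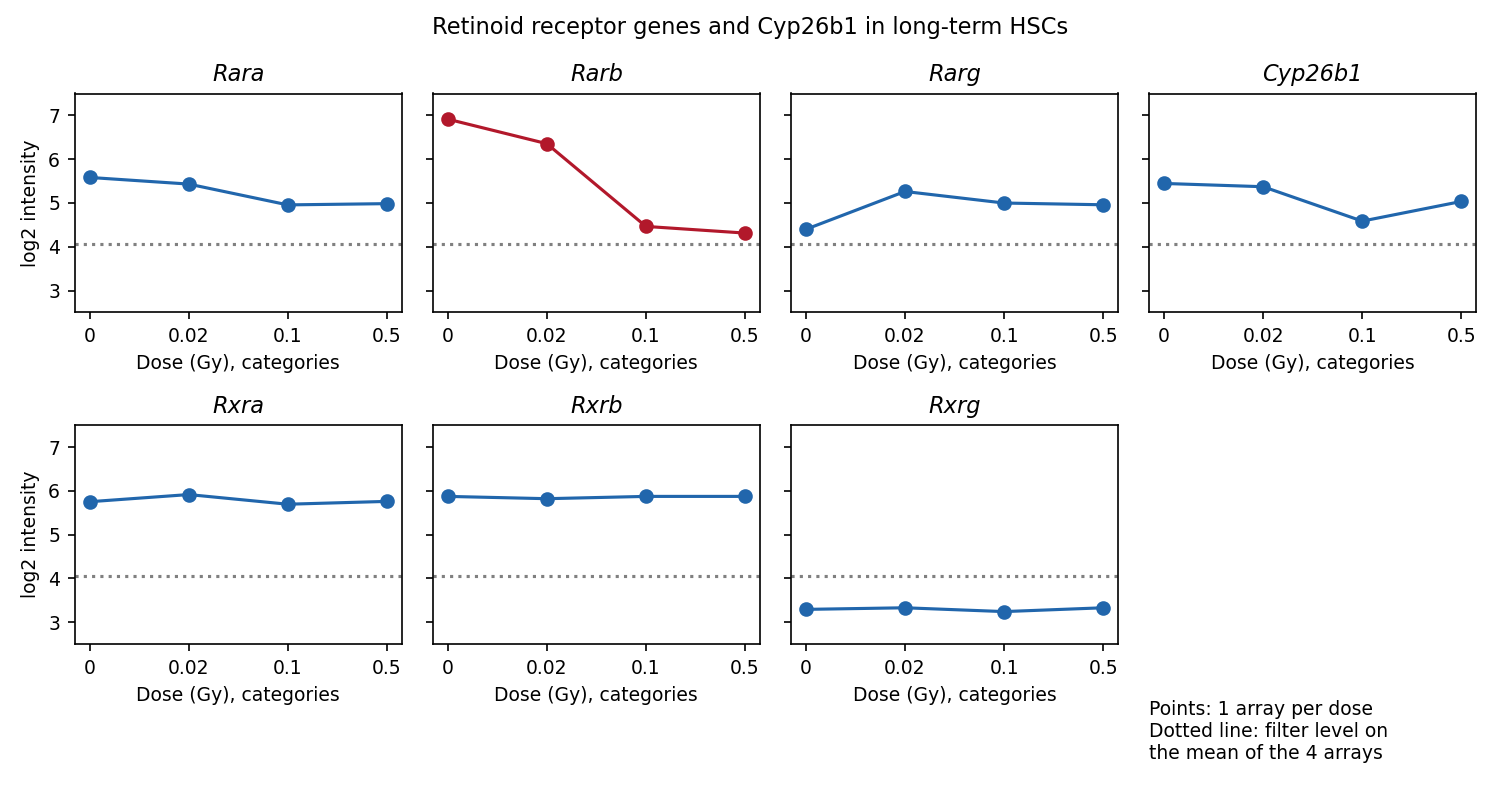
The log2 intensity of each of the 7 genes (vertical axes, shared scale) on the arrays of 0, 0.02, 0.1 and 0.5 Gy (horizontal axes, doses as categories), with 1 array per dose and a dotted line at the filter level of 4.06. Rarb drops between 0.02 and 0.1 Gy, Rarg lies above its 0 Gy value at each irradiated dose, and Rxra, Rxrb and Rxrg each vary by at most 0.22 on the log2 scale.

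Counted over the family at 0.02 Gy, 1 gene (Rarg) was at least 1.5-fold higher than at 0 Gy, against 6.44% of kept genes, and 0 were lower, against 6.2%. At 0.1 Gy 3 of the 6 that passed the filter (Rara, Rarb and Cyp26b1) were lower, against 7.48%, and 1 (Rarg) was higher, against 5.5%. At 0.5 Gy 2 (Rara and Rarb) were lower, against 8.25%, and 0 were higher, against 5.92%. At 2-fold, 1 gene was lower at 0.1 Gy, against 2.68%, and 1 at 0.5 Gy, against 3.01%, in each case Rarb, and 0 were higher, against 1.59% at 0.1 Gy and 1.63% at 0.5 Gy. At 0.02 Gy 0 were lower at 2-fold, against 1.55%, and 0 higher, against 2.48%. The members were chosen with these contrasts known, and nothing is read from the counts at 0.1 and 0.5 Gy. The median difference of the 6 genes was -0.06 at 0.02 Gy, -0.34 at 0.1 Gy and -0.21 at 0.5 Gy, and the median of all kept genes was 0 at each dose. With Rxrg included, the median of the 7 genes was -0.05, -0.06 and 0 at 0.02, 0.1 and 0.5 Gy.

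The wider nuclear receptor family was set beside Rarb. With the partner receptors and the other nuclear receptors, 44 of 48 listed receptors were measured and 24 passed the filter. Rarb had the lowest difference of the 24 at 0.1 and at 0.5 Gy, and ranked 3 from the lowest at 0.02 Gy. The family was chosen on the low values of Rarb at 0.1 and 0.5 Gy, so its rank there is a description. The circadian repressor gene Nr1d1, with log2 intensities of 7.20, 6.60, 6.22 and 6.18 at 0, 0.02, 0.1 and 0.5 Gy, was the other receptor at least 2-fold lower at 0.5 Gy, with a difference of -1.02. Pgr, which encodes the progesterone receptor, had 5.31, 5.63, 4.33 and 4.38, and its difference was -0.99 at 0.1 Gy and -0.93 at 0.5 Gy. Both were thus low on the arrays where Rarb was low, with smaller differences.

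In the other direction, Hnf4a, a receptor known for its role in liver, had 6.71 at 0.1 Gy against 4.20 at 0 Gy and stood apart on that array alone. Its values at 0.02 and 0.5 Gy were 4.36 and 4.32. Among the 12 measured receptors that pair with retinoid X receptors, 6 passed the filter. On the 0.02 Gy array 3 of them, Nr4a1, Nr4a2 and Vdr, passed the 1.5-fold line upwards and 1, the thyroid hormone receptor gene Thra at -0.70, passed it downwards, against 6.44% and 6.2% of kept genes. At 0.1 Gy 0 passed it, against 5.5% upwards and 7.48% downwards. At 0.5 Gy 1 (Nr4a1) did upwards, against 5.92%, and 1 (Vdr) downwards, against 8.25%. The median of the 6 was 0.40, 0.01 and -0.03 at 0.02, 0.1 and 0.5 Gy, and that of all 12 was 0.05, 0.01 and -0.02.

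Vdr, which encodes the vitamin D receptor, had log2 intensities of 7.11 (0 Gy), 7.78 (0.02 Gy), 6.80 (0.1 Gy) and 6.31 (0.5 Gy). It was highest at 0.02 Gy and lowest at 0.5 Gy, with a difference from 0 Gy of 0.67 and -0.80 at these doses. Nr4a1, an early response receptor gene, had a difference of 1.07 at 0.02 Gy, 0.32 at 0.1 Gy and 0.77 at 0.5 Gy. Its relative Nr4a2 had 0.74, 0.02 and -0.06 at the same doses.

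Genes that handle the ligand were counted next. For retinol transport and retinoid binding, 14 of 15 listed genes were measured and 3 passed the filter. Of these 3, 1 was at least 1.5-fold lower at each dose, against 6.2%, 7.48% and 8.25% of kept genes at 0.02, 0.1 and 0.5 Gy, and 0 were higher, against 6.44%, 5.5% and 5.92%. It was Lpl, which encodes lipoprotein lipase, with log2 intensities of 5.24, 4.56, 4.36 and 4.10 at 0, 0.02, 0.1 and 0.5 Gy and a difference of -1.14 at 0.5 Gy. The median of the 3 was 0.11, 0.11 and -0.02 at 0.02, 0.1 and 0.5 Gy, and that of all 14 was -0.02, -0.01 and 0. Crabp2, which carries retinoic acid in the cell, was below the filter level on every array, with values between 3.64 and 3.75, as were Rbp7, a retinol binding protein gene, and the esterifying enzyme gene Lrat.

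For retinoic acid synthesis, 20 genes were measured and 9 passed the filter. Past the 1.5-fold line at 0.02 Gy was 1 gene, upwards (Rdh12), against 6.44% of kept genes, and 0 downwards, against 6.2%. At 0.1 Gy 2 genes passed it downwards (Aldh1a1 and Dhrs3), against 7.48%, and 0 upwards, against 5.5%. Dhrs3 encodes a retinal reductase, which lowers the supply of retinoic acid, so the list mixes opposite steps and its counts give no direction of synthesis. Under quantile normalization and under cyclic loess that 2 became 1. At 0.5 Gy 1 passed it upwards (Rdh12), against 5.92%, and 1 downwards (Rdh10), against 8.25%. Rdh5, below the filter level on every array, had a difference of -0.88 at that dose. The median of the 9 was -0.11, -0.06 and 0.05 at 0.02, 0.1 and 0.5 Gy, and that of all 20 was -0.06, -0.05 and 0.

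Aldh1a1, which encodes a retinal dehydrogenase that makes retinoic acid, had log2 intensities of 10.99 (0 Gy), 10.70 (0.02 Gy), 10.39 (0.1 Gy) and 10.61 (0.5 Gy). The 3 irradiated arrays were below the 0 Gy array, with the largest difference at 0.1 Gy, -0.61. Aldh1a2, another retinal dehydrogenase gene, stayed below the filter level, between 2.96 and 3.14. Rdh10, which encodes a retinol dehydrogenase, had 4.86 (0 Gy), 5.30 (0.02 Gy), 5.19 (0.1 Gy) and 3.86 (0.5 Gy). Only the array of 0.5 Gy was low, with a difference of -1.0, and its value lay below the filter level. Rdh12, also named as a retinol dehydrogenase gene, had 4.03, 4.77, 4.52 and 4.83 at 0, 0.02, 0.1 and 0.5 Gy. It was above its 0 Gy value, which lay below the filter level, at each irradiated dose. The arrays do not show which way these enzymes run between retinol and retinal, so higher Rdh12 is not a measure of more synthesis.

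Both other CYP26 genes were below the filter level on all 4 arrays. Cyp26a1, whose DR5 is shown above, had log2 intensities of 3.71 (0 Gy), 3.45 (0.02 Gy), 3.51 (0.1 Gy) and 3.51 (0.5 Gy). Cyp26c1 had 2.97 on every array.

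Of the 8 corepressor genes measured, 0 were at least 1.5-fold different from 0 Gy at 0.02 Gy (6.44% of kept genes higher, 6.2% lower), 0.1 Gy (5.5%, 7.48%) or 0.5 Gy (5.92%, 8.25%). Their medians were 0.17, -0.11 and 0 at these doses. The largest difference from 0 Gy among them was that of Lcor, a ligand-dependent corepressor, 0.48 at 0.02 Gy. Between the highest and the lowest array Lcor spanned 0.89 and the corepressor gene Nrip1 0.92 on the log2 scale, and the other 6 spanned at most 0.34. Of the 10 coactivator genes, 0 passed the 1.5-fold line at 0.02 Gy. At 0.1 Gy 1 was lower and 0 higher, and at 0.5 Gy 1 was higher and 0 lower, shares of 10 genes close to those of kept genes, 7.48% lower at 0.1 Gy and 5.92% higher at 0.5 Gy. The medians were 0.01, 0.05 and 0.03 at 0.02, 0.1 and 0.5 Gy. These were the coactivator gene Ncoa6 with -0.68 and the acetyltransferase gene Kat2b with 0.66. Ncoa2 had differences of 0.53, 0.39 and -0.46 at 0.02, 0.1 and 0.5 Gy and spanned 1.0 on the log2 scale between arrays.

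Among retinoic acid target genes, Rarb itself left out, 15 of 19 were measured and 7 passed the filter. The 1.5-fold line was passed by 0 of the 7 at 0.02 Gy, against 6.44% of kept genes upwards and 6.2% downwards. Of the 8 below the filter 1, Hoxb1, had a difference of -0.61 at that dose. At 0.1 Gy 1 passed it upwards and 2 downwards, against 5.5% and 7.48%. At 0.5 Gy 0 passed it, against 5.92% and 8.25%, and 1 of the 8 below the filter, Cebpe, a myeloid transcription factor gene, had a difference of 0.63. The median of the 7 was 0.08, 0.08 and -0.12 at 0.02, 0.1 and 0.5 Gy, and that of all 15 was 0 at each dose. Dhrs3, also on the synthesis list, encodes a retinal reductase that lowers the supply of retinoic acid and had log2 intensities of 7.03, 6.91, 6.24 and 7.10 at 0, 0.02, 0.1 and 0.5 Gy. Tgm2, a transglutaminase gene, had 8.82, 9.36, 8.08 and 8.52. Both were lowest at 0.1 Gy, with differences of -0.79 and -0.75, and at 0.5 Gy their differences were 0.08 and -0.31. The Hox gene Hoxa4 was highest at 0.1 Gy, with a difference of 0.64.

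**Figure D2:**
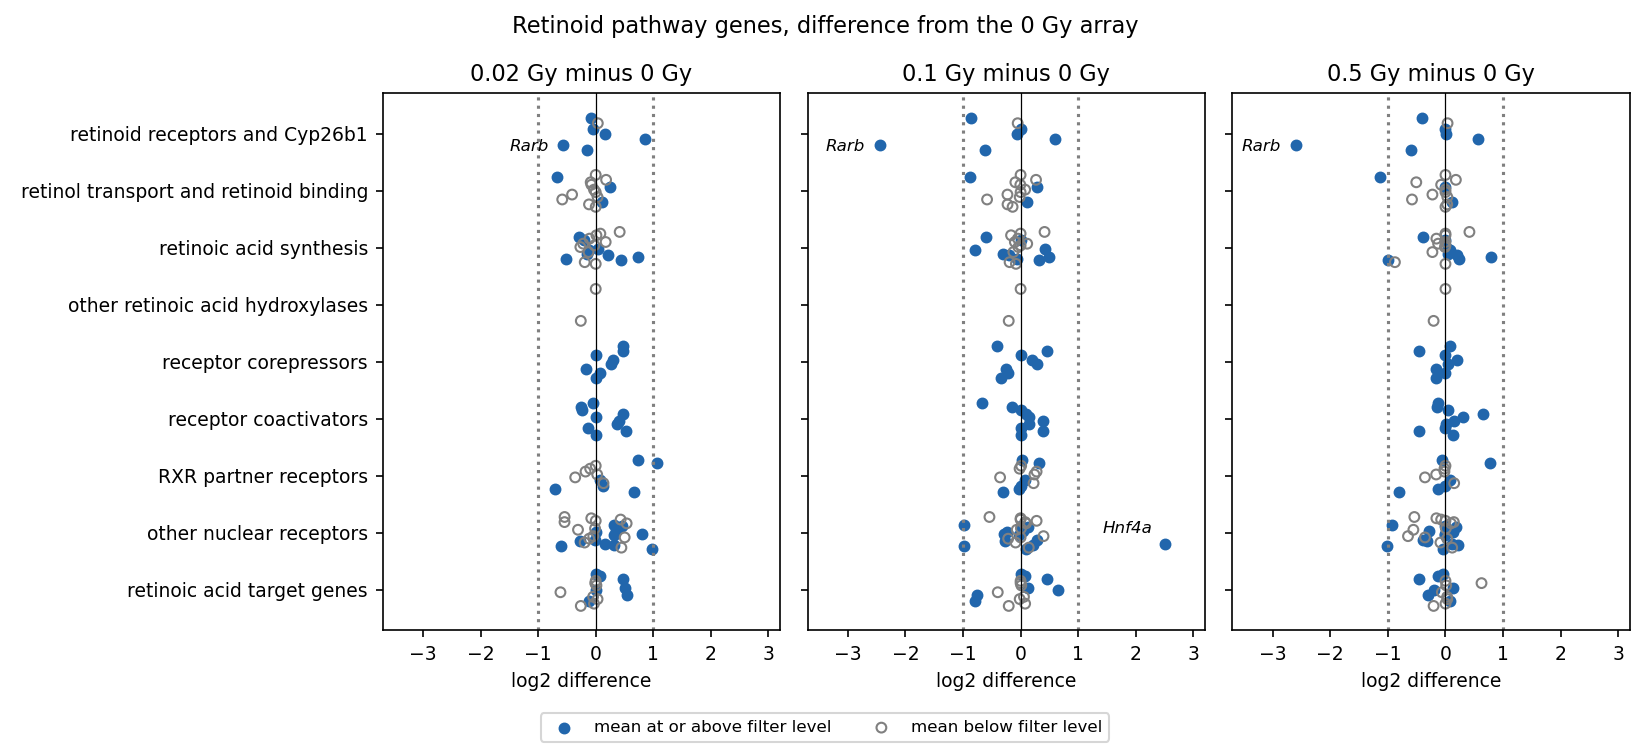
Each point is 1 gene, placed by its log2 difference from the 0 Gy array (horizontal axes) in the list it belongs to (rows), with a panel for each of 0.02, 0.1 and 0.5 Gy. Filled points passed the filter, open points did not, and dotted lines mark 2-fold. Rarb at -2.45 and -2.60 and Hnf4a at 2.51 stand farthest from 0.

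The genes whose pattern over the 4 arrays was most like that of Rarb were found by the Euclidean distance between log2 values after each gene's own mean was taken off. The median distance of the other 11592 kept genes was 2.28, and 13 genes lay within 1. Predicted genes, small RNAs and immunoglobulin segments aside, the nearest was Neo1, which encodes the netrin receptor neogenin, at a distance of 0.43. Its log2 intensities were 7.47, 6.38, 4.61 and 4.35 at 0, 0.02, 0.1 and 0.5 Gy. The next were the Hox gene Hoxb8 at 0.62, Entpd1, which encodes the ectonucleotidase CD39, at 0.83, and Nrg4, which encodes a neuregulin, also at 0.83. Krt80, a keratin gene, followed at 0.85, Slc35e3 at 0.85, the clusterin gene Clu at 0.89 and Gbp8, of the guanylate-binding proteins, at 0.94. All 8 were at least 2-fold lower at both 0.1 and 0.5 Gy, which follows from how they were found. At 0.1 Gy Hoxb8 at 4.02, Entpd1 at 3.98 and Gbp8 at 3.22 lay below the filter level. Close above it were Krt80 at 4.16 (0.1 Gy) and 4.14 (0.5 Gy) and Slc35e3 at 4.10 (0.5 Gy). Values this low limit the size of their differences. At 0.02 Gy, where Rarb was 0.56 below its 0 Gy value on the log2 scale, Entpd1 at 0.48, Clu at 0.35 and Krt80 at 0.09 lay above theirs and the remaining 5 below.

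Cyp26b1 and Rara were the members nearest to Rarb, each at a distance of 1.74, ranks 363 and 370 of 11592. Rarg was among the farthest, at 2.60 and rank 10203. Windows were held for 5 of the 8 nearest genes, and 0 of the 5 had a DR1, DR2 or DR5, a group of motifs found in 0.588% of all windows.

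**Figure D3:**
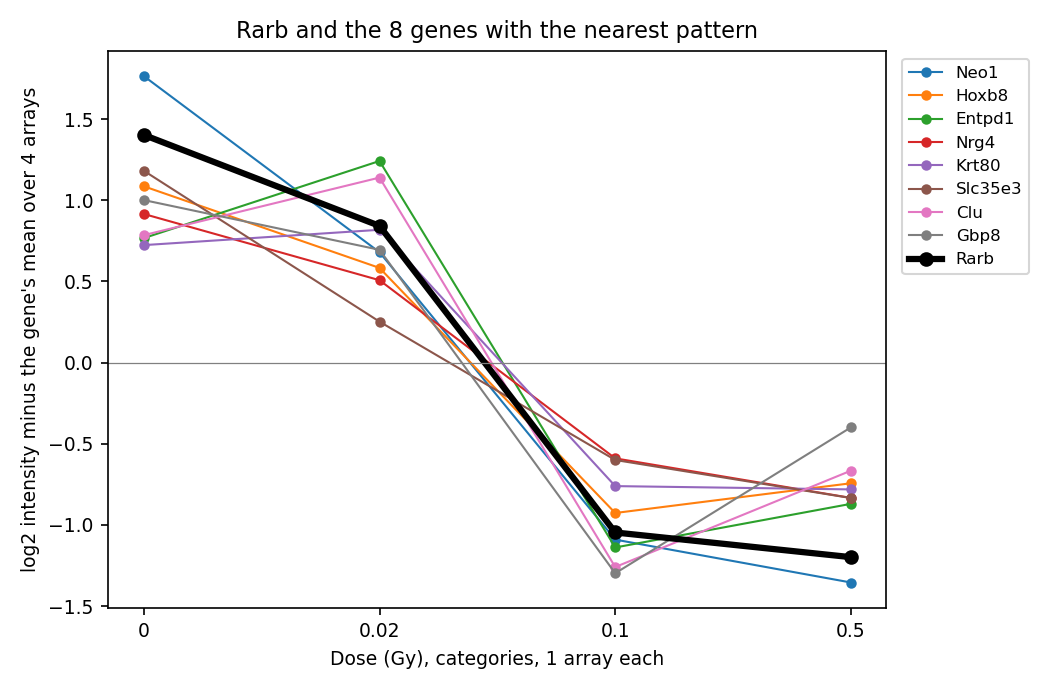
The log2 intensity of Rarb (thick black line) and of the 8 genes nearest to it, each minus the gene's own mean over the 4 arrays (vertical axis), at 0, 0.02, 0.1 and 0.5 Gy (horizontal axis, 1 array each). The lines lie above 0 at 0 and 0.02 Gy and below it at 0.1 and 0.5 Gy.

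Genes beside Rarb on the chromosome were looked up after the values of Rarb were known. Top2b, the topoisomerase gene next to Rarb in RefSeq's order of protein-coding genes, had log2 intensities of 7.98 (0 Gy), 7.76 (0.02 Gy), 7.86 (0.1 Gy) and 7.77 (0.5 Gy). Thrb, the thyroid hormone receptor gene on the other side, had 4.16 (0 Gy), 4.28 (0.02 Gy), 4.16 (0.1 Gy) and 4.16 (0.5 Gy). Ngly1, beyond Top2b, had 7.82, 7.96, 7.82 and 7.82 at these doses. Oxsm, beyond Ngly1, had differences from 0 Gy of 0.40, -0.03 and 0.23 at 0.02, 0.1 and 0.5 Gy. Nr1d2, on the side of Thrb, had log2 intensities of 6.26, 6.58, 6.47 and 6.47 at 0, 0.02, 0.1 and 0.5 Gy. The differences of the 5 genes from 0 Gy lay between -0.23 and 0.40.

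The sorted cells were checked against their markers, of which 2 of 3 sorted ones were measured. Kit had log2 intensities of 10.16, 10.57, 10.40 and 10.12 and Slamf1, which encodes CD150, 7.67, 8.65, 7.16 and 7.77 at 0, 0.02, 0.1 and 0.5 Gy. Of the genes for excluded markers, Flt3 (Flk2) had 4.46, 4.76, 5.44 and 4.76, above the filter level on every array, and Cd48 had 4.13, 3.08, 4.11 and 4.13. The array medians over 25206 probe sets lay between 4.01 and 4.07.

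Markers of other stages and cell types moved on the arrays where Rarb was low, and also on the 0.02 Gy array, where Rarb was high. Of 10 long-term HSC genes, 3 passed the 1.5-fold line upwards at 0.02 Gy, against 6.44% of kept genes, and 3 downwards at 0.1 Gy, against 7.48%. At 0.5 Gy 1 passed it upwards and 1 downwards, against 5.92% and 8.25%. Their summed linear intensity was 3249, 4047, 2823 and 3019 in order of dose, and their mean log2 intensity was 7.75 (0 Gy), 8.15 (0.02 Gy), 7.42 (0.1 Gy) and 7.53 (0.5 Gy). Mycn, a transcription factor gene of HSCs, had -0.20, -1.34 and -1.34 at the 3 irradiated doses, whereas Procr, a surface receptor gene used as an HSC marker, had 1.38, 0.30 and 0.85. Of 7 progenitor genes, 5 passed the filter. At 0.1 Gy 4 of them were at least 1.5-fold higher, against 5.5% of kept genes, and at 0.5 Gy 4, against 5.92%. Higher at both doses were 3, Cd34 at 1.09 and 1.03, the myeloperoxidase gene Mpo at 3.97 and 2.29 and the cathepsin G gene Ctsg at 2.23 and 0.64. At 0.02 Gy, where Rarb was high, 1 of the 5 passed the line upwards, Mpo at 1.66, against 6.44%. In the other direction 1 passed it there, Cd34 at -0.88, against 6.2%. Ctsg lay below the filter level at 0 and 0.02 Gy, with 3.48 and 3.82. It passed the filter through its values of 5.71 at 0.1 Gy and 4.12 at 0.5 Gy, so its call is partly set by the filter. Ms4a3 passed the line at 0.1 Gy alone and Cd27 at 0.5 Gy alone. Their summed linear intensity was 877, 791, 1840 and 1626 at 0, 0.02, 0.1 and 0.5 Gy, and Dntt and Il7r were below the filter level throughout. The part of these markers in the level of Rarb was not tested.

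Lists of mature cells were also set beside Rarb, as the mean log2 intensity at 0, 0.02, 0.1 and 0.5 Gy. The 10 neutrophil genes had 3.75, 3.93, 4.86 and 4.36, and 4 of the 10, Ltf, Ngp, Fcnb and Mmp8, were below the filter level on all arrays. With the filter left aside, 4 of the 10 were at least 1.5-fold higher than at 0 Gy at 0.1 Gy, against 5.5% of kept genes. At 0.5 Gy 4 were, against 5.92%, but not the same genes. S100a9 had a difference of 2.84 at 0.1 Gy and -0.26 at 0.5 Gy, and Ly6g had -0.06 and 1.71. The 6 erythroid genes had a mean of 6.64, 6.42, 7.22 and 7.67. Of these 6, 3 were past the same line upwards at 0.1 Gy and 4 at 0.5 Gy, while Car2 had differences of -0.14 and -0.23. The 6 plasma cell genes had 5.72, 6.64, 5.32 and 5.20, and the J chain gene Jchain had a difference of -1.29 at 0.1 Gy and -2.43 at 0.5 Gy. The other 5 plasma cell genes averaged -0.22 and -0.13 at these doses. The 5 megakaryocyte genes had 8.31, 8.08, 7.75 and 8.07.

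Among the lists of mature cells, the mean was lower at both 0.1 and 0.5 Gy than at 0 Gy for the plasma cell, megakaryocyte, monocyte, and endothelial and stromal lists, and higher for the neutrophil and erythroid lists. The 7 monocyte and macrophage genes had 4.33, 4.79, 4.03 and 4.10, with Csf1r, Adgre1, Ccr2 and C1qb below the filter level on all arrays. The largest differences were not shared between the doses. Cd68 had -2.07 at 0.1 Gy and 0.08 at 0.5 Gy, while Ly6c2 had 0.55 and -1.56. The 6 B cell genes had 3.99, 4.72, 4.02 and 3.77, with Ms4a1 and Ebf1 below that level. The 7 T and NK cell genes had 4.18, 4.02, 4.12 and 4.26, with Cd3e, Cd3d, Cd3g, Cd4 and Cd8a below it. Of the 12 endothelial and stromal genes, 9 were below the filter level on all arrays, among them Cdh5, Lepr, Pdgfra, Pdgfrb and Col1a1, and the mean was 3.60, 3.47, 3.47 and 3.48. Their part in the level of Rarb was likewise not tested.

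**Figure D4:**
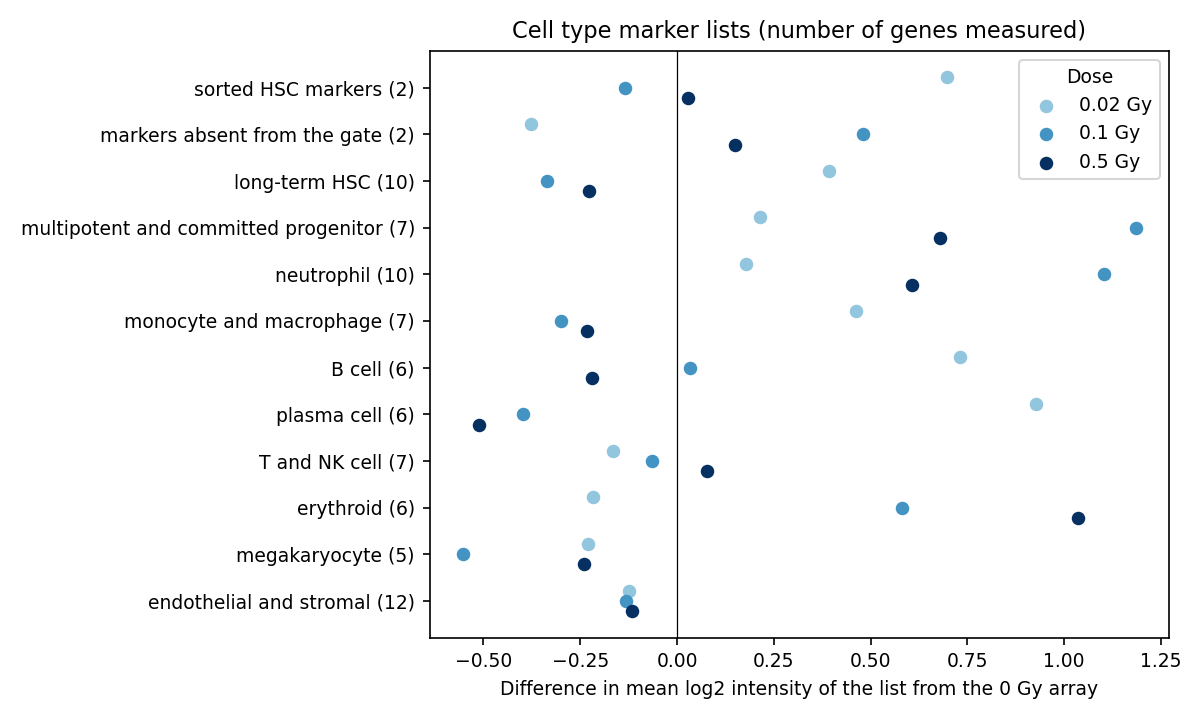
Difference of the mean log2 intensity of each marker list from the 0 Gy array (horizontal axis) at 0.02, 0.1 and 0.5 Gy (colours), with the number of genes measured beside the name of each list (rows). The progenitor, neutrophil and erythroid lists lie above 0 at 0.1 and 0.5 Gy, and the long-term HSC, plasma cell, megakaryocyte, monocyte, and endothelial and stromal lists below it.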

How the data were processed

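RNA of long-term HSCs was measured on 4 arrays, 1 per dose, grouped by labelled dose. Per the labels' protocols, an Affymetrix whole-transcript labelling kit gave biotinylated cDNA. The authors deposited log2 intensities, each for a probe set named by Entrez gene. That the base is 2 rests on the range of the values alone, 1.22 to 13.0. Partek is named in the submitters' processing notes without a role or version, while how background was corrected, how arrays were normalized and which build was used is not stated there. Arrays carry no read depth, and their number limits the precision.

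Of 25206 probe sets, 2021 had no symbol in the platform annotation and were not used, so some listed genes were not analysed here. Values were used as deposited. Every comparison is a log2 difference between 2 arrays with no test. The members, gene lists and naming rule were chosen with earlier results of these data known. The rule named the 7 genes, up to 3 genes per retinoid list with the largest difference from 0 Gy, 7 further pathway genes of which those with a symbol were used, the 8 genes nearest to Rarb and the markers; the text gives a part of them, and neighbours of Rarb were added. The code for counting and distances was tested on simulated data. The simulated shifts were far larger than the simulated noise, so the test does not bear on calls at the spread of these arrays. Promoter windows come from RefSeq. Python 3.11.15 with pandas 2.3.3 was used, and limma 3.58.1 in R 4.3.3 for quantile and cyclic loess normalization as alternatives, beside median centring, other filters, another reference and Pearson correlation.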

Additional observations from a re-analysis of the deposited data

How the results depend on the processing

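With 1 array per dose, no array could be left out without losing its dose, and no paired analysis was possible because no dose had a replicate. Under quantile normalization, median centring and cyclic loess, the 36 differences of Rara, Rarb, Rarg and Cyp26b1 from 0 Gy kept their sign. Over these scalings Rarb lay between -2.45 and -2.40 at 0.1 Gy and between -2.59 and -2.53 at 0.5 Gy, and at 0.02 Gy median centring gave -0.61, which put 1 member at 1.5-fold lower. At 0.5 Gy both quantile normalization and cyclic loess put 1 member at 1.5-fold higher and 1 lower. Against the mean of the other 3 arrays in place of 0 Gy, Rarb was at 1.12, -1.40 and -1.60 at 0.02, 0.1 and 0.5 Gy, since that mean holds the low arrays. That mean also gave 1 member 2-fold higher at 0.02 Gy, 0 at 1.5-fold higher at 0.1 Gy (Rarg at 0.13) and 1 at 1.5-fold lower at 0.5 Gy. At 0.02 Gy Rarg lost its call too, at 0.48, and the 1 member past 1.5-fold higher was Rarb. A stricter filter at 5.66, which kept 7729 genes, removed Rarb, Rara, Rarg and Cyp26b1 and left 0 members past either line at any dose. Pearson correlation over the 4 arrays shared 3 of its 8 genes (Nrg4, Hoxb8 and Neo1) with the distance, led by Mycn at 0.997. Of 390 values of the pathway lists under the alternatives, 38 moved past the set limits. A change of sign was counted only for medians past the 1.5-fold line, and no pathway list had such a median. Smaller medians could change sign, as that of the retinoic acid target genes at 0.1 Gy did, from 0.08 to -0.75 under the stricter filter. Values near the filter level on single arrays limit the size of differences.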
